A study of Mus musculus with 6 samples.

Results

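The genes described here were 73 genes of the extracellular matrix, out of 41079 genes listed in the tables. They were taken by symbol, with earlier results of these data known. They comprised 44 collagen chains, 11 laminin chains and 18 further matrix proteins and cross-linking enzymes. The latter were Fn1, Sparc, Tgfbi, Ccn1, Ccn2, Postn, Tnc, Nid1, Nid2, Npnt, Fbn1, Fbln2, Mgp, Emilin1, Emilin2, Lox, Loxl2 and Loxl3.

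Collagens are triple-helical proteins that form fibrils in connective tissue and sheets in basement membranes, while laminins are cross-shaped trimers that carry the basement membrane on the cell surface. Fibronectin and the matricellular proteins link these networks to integrins and modulate adhesion and growth factor signalling. In the brain, fibrillar collagens are best known from fibroblasts of the meninges and vessels, and basement membrane chains from vascular and perivascular cells, whereas microglia and other macrophages express some matrix glycoproteins themselves. TGF-β is a widely known inducer of matrix genes in many cell types.

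RNA was sequenced from primary microglia of C57Bl/6N mouse brains, in 3 control and 3 stimulated libraries. The mice were 1 to 3 days old. Mixed brain cells of both groups were grown in flasks with medium conditioned by L-929 cells, a mouse fibroblast line, and the microglia were shaken off, so each culture stood for cells that had adapted to growth in vitro and could hold some other brain cells. Stimulated cultures received human TGFbeta, human IL34 and CX3CL1 at 100 ng/mL each. The study's methods add cholesterol, an insulin-transferrin-selenium supplement and wells coated with collagen IV protein for the stimulated cultures, with plain serum-free DMEM/F12 for the controls, so no single component can be told apart from the others. The study describes the libraries as biological replicates. The labels do not say which preparations they came from. The p-values set the difference between the groups against the spread between these samples, whose source the labels do not give.

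Totals lay between 20628148 and 27261839 counts per library. Levels are given as CPM, the counts scaled to a common library total after TMM scaling, or as the deposited FPKM values, which are per kilobase of gene, where genes are compared with each other. Microglial markers were high in all libraries, with the sum of 12 markers between 11513 and 12821 CPM in control and between 15795 and 21270 CPM in stimulated libraries. Summed astrocyte markers lay between 41.1 and 43.0 CPM in control and between 30.6 and 35.9 CPM in stimulated libraries. The lower sum rested on Aldh1l1, with 16.3, 15.1 and 18.0 CPM in control and 4.83, 4.39 and 4.69 CPM in stimulated libraries. Gfap had 3.45, 5.02 and 4.06 CPM in control and 3.98, 4.90 and 5.18 CPM in stimulated libraries. Of the 9 astrocyte markers tested, 5 had a positive log2 fold change. Neuron markers summed to between 7.94 and 9.53 CPM over all 6 libraries. Oligodendrocyte lineage markers, mostly Mbp, summed to between 140 and 157 CPM in control and between 170 and 210.2 CPM in stimulated libraries.

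Markers of mesenchymal and vascular cells were not even across the stimulated libraries. The 18 fibroblast markers summed to 9.75, 14.5 and 14.6 CPM in control libraries 1 to 3 and to 20.5, 11.2 and 27.7 CPM in stimulated libraries 1 to 3. Of the 18, 8 had enough counts for testing and 1 (Slc6a13) was at 0 in all libraries. Of the 8, 0 were called by edgeR, against 29.8% of all genes tested, with 0 at an unadjusted p under 0.05 and 0 called by DESeq2. Their median log2 fold change was 0.57, with 7 of the 8 positive, so the lack of calls does not show that they stayed level. In stimulated library 3, 4 of the 8 were at least 2 times higher than in the mean of the other stimulated libraries, against 1.15% of all genes tested. Stimulated library 3 was highest for Dcn (decorin), with 2.32, 4.89 and 4.28 CPM in control and 6.77, 3.11 and 10.98 CPM in stimulated libraries 1 to 3, while Lum (lumican) stayed below 1 CPM in all 6 libraries. The 10 pericyte and smooth muscle markers summed to 12.2, 13.3 and 11.8 CPM in control and 35.4, 10.3 and 17.99 CPM in stimulated libraries, and here it was stimulated library 1 that stood apart. Myh11, the smooth muscle myosin, had 4, 3 and 0 counts in control and 145, 0 and 0 counts in stimulated libraries. Counts of Rgs5, a pericyte gene, were 1, 1 and 0 in the controls and 37, 0 and 0 in the stimulated libraries, and the muscle filament gene Des was at 0 in all libraries except stimulated library 1, with 63 counts. Summed endothelial markers lay between 81.5 and 97.3 CPM in control and between 274 and 354 CPM in stimulated libraries, of which Flt1, a VEGF receptor that myeloid cells can also express, made up most. The endothelial genes Pecam1 and Cdh5 stayed below 3 CPM in all libraries. Summed fibroblast markers were highest in stimulated library 3, as were several matrix genes below. The part of these and the other markers in those results was not tested. In bulk RNA, more cells of a type and more RNA per cell cannot be told apart.

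The sequences just upstream of 4 genes are printed because these genes carry the contrast that runs through the data: Npnt, Fn1 and Tgfbi were high in every stimulated library, and Col3a1 was high in stimulated library 3 only. Each is the 250 bases before the start of the Ensembl canonical transcript in GRCm39, written 5′ to 3′ on the strand of the gene, and for Tgfbi this start lies within the annotated gene, whose first transcript begins earlier. The windows are chr3:132656258-132656507 (minus strand) for Npnt, chr1:71692420-71692669 (minus strand) for Fn1, chr13:56757118-56757367 (plus strand) for Tgfbi and chr1:45350448-45350697 (plus strand) for Col3a1. Capitals mark CAGAC or its reverse complement GTCTG, the core bound by SMAD proteins, and CATTCC, the reverse complement of the TEAD motif GGAATG.
Npnt: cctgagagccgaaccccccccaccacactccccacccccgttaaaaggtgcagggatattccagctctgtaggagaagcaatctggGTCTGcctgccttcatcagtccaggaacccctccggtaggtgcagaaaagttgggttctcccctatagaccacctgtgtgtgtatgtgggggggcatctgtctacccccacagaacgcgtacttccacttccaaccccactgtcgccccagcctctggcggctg
Fn1: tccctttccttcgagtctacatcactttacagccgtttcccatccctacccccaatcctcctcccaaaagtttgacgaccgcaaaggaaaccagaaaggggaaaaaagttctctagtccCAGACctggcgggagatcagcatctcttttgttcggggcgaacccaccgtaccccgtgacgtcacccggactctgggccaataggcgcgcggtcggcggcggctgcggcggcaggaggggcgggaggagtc
Tgfbi: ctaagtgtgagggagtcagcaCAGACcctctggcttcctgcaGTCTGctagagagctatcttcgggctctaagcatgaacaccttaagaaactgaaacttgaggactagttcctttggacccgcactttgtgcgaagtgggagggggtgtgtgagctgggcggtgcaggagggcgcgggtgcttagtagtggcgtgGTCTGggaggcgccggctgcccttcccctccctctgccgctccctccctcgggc
Col3a1: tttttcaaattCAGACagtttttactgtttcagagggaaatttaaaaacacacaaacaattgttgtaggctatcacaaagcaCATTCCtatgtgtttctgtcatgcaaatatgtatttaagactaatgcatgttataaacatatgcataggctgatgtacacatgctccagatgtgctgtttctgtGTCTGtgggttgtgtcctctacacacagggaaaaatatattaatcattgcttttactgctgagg
Npnt and Fn1 held 1 SMAD core each, Tgfbi held 3 and Col3a1 held 2, so the short core was present upstream of genes with either pattern. Searched on both strands, CAGAC was present in the windows of 36 of the 73 matrix genes (49.3%), of 28 of the 52 tested (53.8%), of 12 of the 18 called higher (66.7%), of 2 of the 5 called lower and of 41.3% of 20996 protein-coding genes. GGAATG was present in 12 of 73 (16.4%) against 12.1% of all, the PU.1-type ETS motif GAGGAAG in 9 of 73 (12.3%) against 10.3%, and the AP-1 motif TGANTCA in 0 of 73 against 6.17%. None of these motifs overlapped another in the 4 windows. The windows of Col15a1 and Postn, described below, held none of the 4 motifs. A match is a run of letters and not a known binding site.

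Matrix transcripts took a larger share of the RNA in every stimulated library, and fibronectin accounted for most of it. The 73 genes took 0.111%, 0.101% and 0.0966% of all counts in control libraries 1 to 3 and 0.490%, 0.328% and 0.457% in stimulated libraries 1 to 3. Fn1 alone gave between 45.6% and 51.8% of the matrix counts in control and between 72.2% and 79.3% in stimulated libraries. Without Fn1, the matrix genes still summed to between 498 and 521 CPM in control and between 939 and 1344 CPM in stimulated libraries, so the groups did not overlap with or without it.

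Of the 73 genes, 52 had enough counts to be tested, 3 were at 0 in every library (Col6a6, Col13a1 and Col25a1) and 18 had few counts. By edgeR's quasi-likelihood test with an adjusted p under 0.05, 18 of the 52 were higher (34.6%) and 5 were lower (9.62%) in stimulated libraries. Over all 14618 genes tested, 29.8% were called, 14.7% higher and 15.2% lower. The genes were chosen with earlier results of these data known, so the difference from this background describes the list and does not test it. Of 26 tested collagens, 5 were called higher and 2 lower, and of 8 tested laminin chains 2 and 0. The remaining calls were of the matrix proteins and cross-linking enzymes picked singly by name. The median log2 fold change was 0.73 over the 52 genes and 0.01 over all genes tested. That median rested on stimulated library 3: without it, it was 0.18, with 14 called higher (26.9%, against 11.3% of 15039 genes) and 6 called lower (against 11.9%). All 14 were among the 18, and the 6 were the same 5 plus Col18a1, which encodes the basement membrane collagen that yields endostatin.

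**Figure D1:**
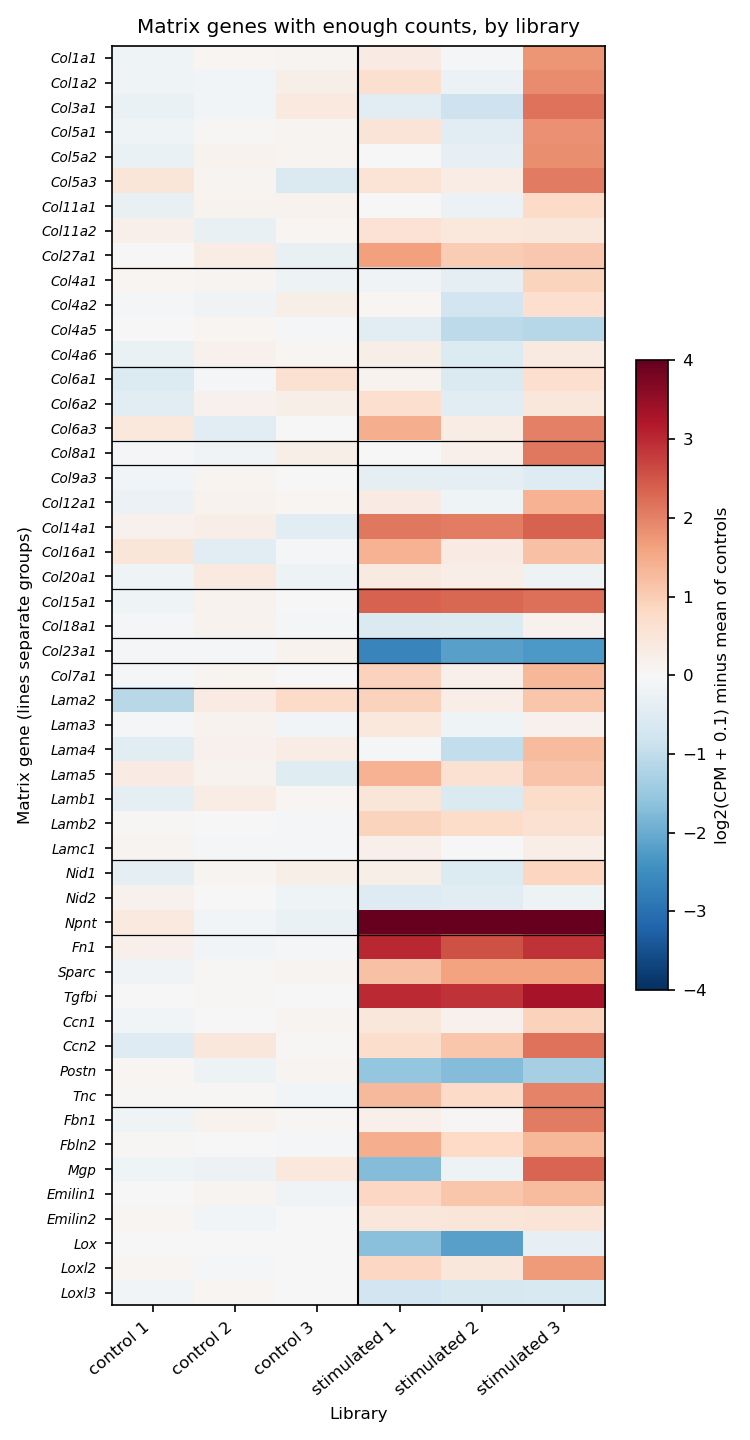
Each row is 1 of 51 tested matrix genes and each column 1 library, and the colour is log2(CPM + 0.1) minus the mean of the controls, with the scale ending at 4 so that Npnt is drawn at its limit. Npnt, Fn1, Tgfbi, Col14a1 and Col15a1 are dark in all 3 stimulated libraries, while Col1a1, Col3a1, Col5a2, Col8a1 and Fbn1 are dark in stimulated library 3 only.

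All 7 genes of fibronectin and the matricellular proteins were called, 6 higher and 1, Postn, lower, against 29.8% called of all genes tested. This group was put together with earlier results of these data known, so its share of calls does not test the family. Fn1, which encodes the integrin-binding glycoprotein fibronectin (chr1:71624673-71692419, minus strand), had 536, 433 and 444 CPM in control and 3799, 2715 and 3483 CPM in stimulated libraries 1 to 3. Every stimulated library was far above every control, with library 2 the lowest of the stimulated. Fn1 rose by 2.82 ± 0.15 on the log2 scale (SE, edgeR adjusted p = 8.88e-07). Tgfbi encodes a collagen- and integrin-binding protein first named for its induction by TGF-β (chr13:56757336-56787375, plus strand). It had 42.3, 44.3 and 43.1 CPM in control and 347, 322 and 430.3 CPM in stimulated libraries, a log2 fold change of 3.08 ± 0.12 (SE, edgeR adjusted p = 1.31e-07). Its controls lay within a narrow range and no stimulated library came near them. Sparc encodes a collagen-binding matricellular protein that microglia are known to express (chr11:55285317-55314067, minus strand). It had 52.1, 59.1 and 62.3 CPM in control and 129, 178 and 176 CPM in stimulated libraries, and in contrast to Fn1 its lowest stimulated value was in library 1 (log2 fold change 1.48 ± 0.13, edgeR adjusted p = 2.26e-05).

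The other 4 genes of this group had lower FPKM values than these 3 in both groups. Tnc, encoding the adhesion-modulating glycoprotein tenascin C, had 8.74, 8.77 and 7.72 CPM in control and 20.7, 14.4 and 33.4 CPM in stimulated libraries, higher in all 3 and highest in library 3 (log2 fold change 1.44 ± 0.26, edgeR adjusted p = 0.00211). Ccn2, the connective tissue growth factor gene, had 1.22, 2.49 and 1.83 CPM in control and 2.94, 3.96 and 8.37 CPM in stimulated libraries. Its log2 fold change of 1.45 (edgeR adjusted p = 0.0211) dropped to 0.90 (adjusted p = 0.0806) without stimulated library 3. Ccn1, a related integrin ligand, had 8.79, 9.58 and 10.2 CPM in control and 13.02, 10.8 and 18.2 CPM in stimulated libraries, and its log2 fold change of 0.55 (edgeR adjusted p = 0.0463) became 0.32 (adjusted p = 0.177) without that library. Postn, encoding periostin, a paralogue of Tgfbi, moved the other way (chr3:54268501-54298471, plus strand). It had 31.2, 25.5 and 32.1 CPM in control and 9.94, 8.73 and 11.7 CPM in stimulated libraries, with no overlap (log2 fold change -1.55 ± 0.14, edgeR adjusted p = 2.17e-05).

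**Figure D2:**
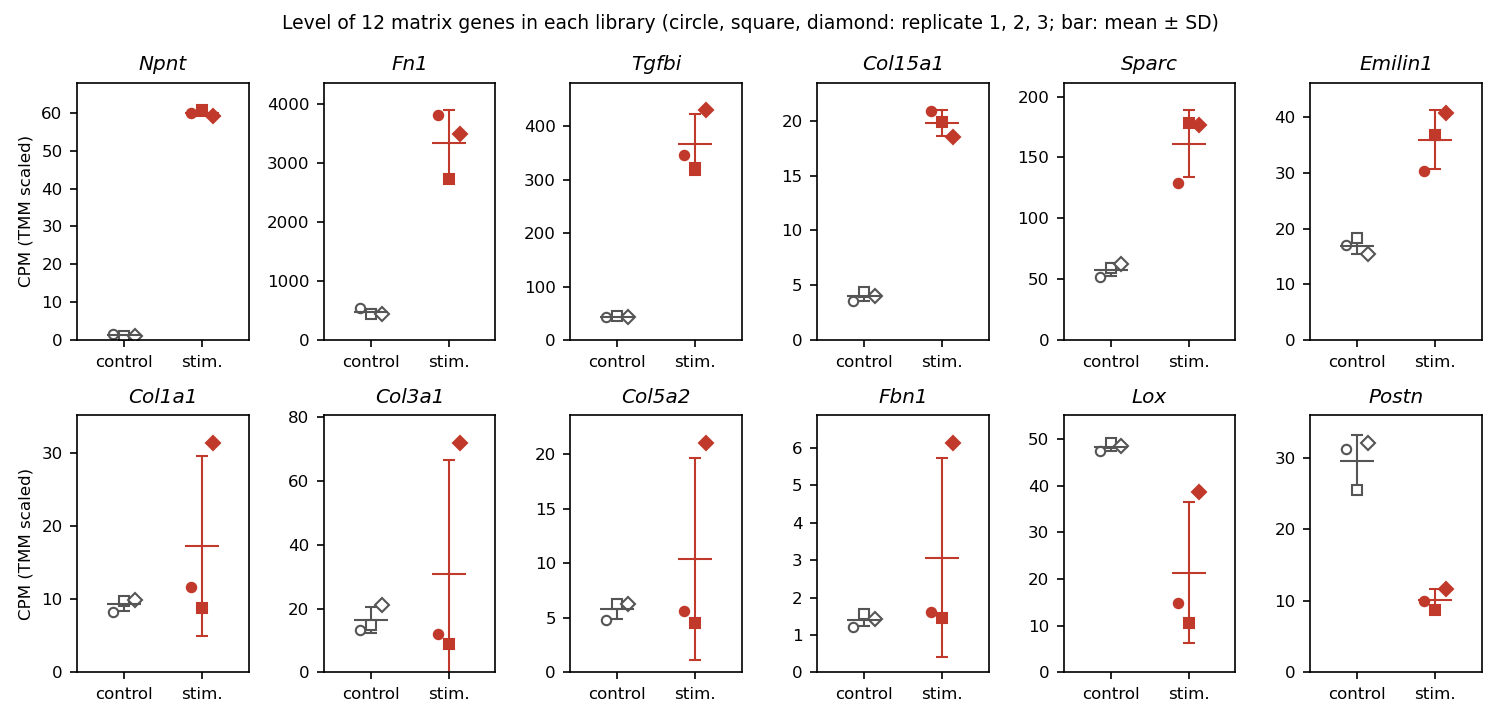
Each panel shows the CPM of 1 gene in the 3 control (open) and 3 stimulated (filled) libraries on an axis from 0, with circle, square and diamond for replicates 1, 2 and 3 and bars for mean ± SD, the Col3a1 bar being cut at 0. In the stimulated cultures Npnt sits between 59.3 and 60.8 CPM with almost no spread, whereas for Col1a1, Col3a1, Col5a2 and Fbn1 only the diamond of library 3 lies above the controls by a wide margin.

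Of the genes that attach cells to basement membranes, Npnt changed most among all 52 tested matrix genes. It encodes nephronectin, a ligand of integrin α8β1 found in basement membranes (chr3:132587506-132656257, minus strand). It had 37, 27 and 27 counts, or 1.62, 1.101 and 0.988 CPM, in control libraries 1 to 3 and 1266, 1427 and 1225 counts, or 59.9, 60.8 and 59.3 CPM, in stimulated libraries 1 to 3. The 3 stimulated values were within a few percent of each other and the controls had few counts. Npnt rose by 5.61 ± 0.16 on the log2 scale (SE, edgeR adjusted p = 2.95e-08), and the value was 5.62 without stimulated library 3. The nidogen genes, whose products bridge laminin and collagen IV, did not pass the test. Nid1 had 3.37, 4.77 and 5.198 CPM in control and 5.21, 2.94 and 8.03 CPM in stimulated libraries (edgeR adjusted p = 0.596). Nid2 had 6.43, 5.59 and 5.01 CPM in control and 3.88, 4.21 and 4.93 CPM in stimulated libraries (edgeR adjusted p = 0.127), and it shares 767 exon bases with Rtraf, which had 12.5 times its counts.

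Among 11 laminin chains, 8 were tested, 2 were called higher and 0 lower (0 lower at an unadjusted p under 0.05 and 0 by DESeq2), against 14.7% and 15.2% of all genes tested. Lamb2, the β2 chain, had 14.7, 14.4 and 13.7 CPM in control and 26.4, 24.01 and 21.7 CPM in stimulated libraries (log2 fold change 0.75 ± 0.11, edgeR adjusted p = 4.57e-04). All stimulated libraries were above all controls, and it was library 1 and not library 3 that was highest. Lama5, the α5 chain of adult basement membranes, had 3.32, 2.94 and 1.87 CPM in control and 7.01, 4.09 and 5.95 CPM in stimulated libraries (log2 fold change 1.07 ± 0.27, edgeR adjusted p = 0.0129). The call was lost with limma on FPKM values (adjusted p = 0.0608 with a pseudocount of 1 and 0.0631 with 0.1), and Lama5 shares 85 exon bases with Adrm1, which had 20.1 times its counts. Lamc1, the γ1 chain common to most laminins, was the most abundant laminin transcript per length, at 7.67 ± 0.652 FPKM in control and 7.78 ± 1.097 FPKM in stimulated libraries (mean ± SD, n = 3 each). It had 61.6, 55.5 and 55.3 CPM in control and 66.1, 56.5 and 69.6 CPM in stimulated libraries, and the groups overlapped (log2 fold change 0.16, edgeR adjusted p = 0.284). Lama3, the α3 chain of epithelial laminins, had 9.79, 11.01 and 9.33 CPM in control and 13.5, 8.86 and 11.4 CPM in stimulated libraries (edgeR adjusted p = 0.5105). Lama2, Lama4 and Lamb1 were each below 4 CPM in all libraries and were not called.

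Among the 44 collagens, 26 were tested, 5 were called higher and 2 lower. Over all genes tested, 14.7% were called higher and 15.2% lower, so the share of collagens called higher was near the background and the share called lower was below it. Col15a1 encodes the α1 chain of collagen XV, a multiplexin with heparan or chondroitin sulfate chains found next to basement membranes (chr4:47207582-47313179, plus strand). It had 3.54, 4.405 and 3.99 CPM in control and 20.9, 19.9 and 18.6 CPM in stimulated libraries, and the stimulated values lay close together (log2 fold change 2.31 ± 0.13, edgeR adjusted p = 9.39e-07). The other multiplexin, Col18a1, had 7.48, 8.57 and 7.36 CPM in control and 5.21, 5.28 and 8.85 CPM in stimulated libraries, with libraries 1 and 2 below all controls and library 3 above them (edgeR adjusted p = 0.3696, and 0.0353 without stimulated library 3). It shares 896 exon bases with Slc19a1, which had 1.21 times its counts. Col14a1, a fibril-associated collagen (chr15:55171140-55384199, plus strand), had 22, 25 and 16 counts in control and 83, 89 and 98 counts in stimulated libraries, a log2 fold change of 2.28 ± 0.27 (edgeR adjusted p = 1.27e-04). Col27a1, a fibrillar collagen best known from cartilage, had 3.804, 4.61 and 3.04 CPM in control and 11.98, 7.75 and 8.13 CPM in stimulated libraries (log2 fold change 1.28 ± 0.22, edgeR adjusted p = 0.00146). Of the 9 tested fibrillar collagens it was the 1 called by edgeR (4 had an unadjusted p under 0.05 and 2 were called by DESeq2), and it was highest in stimulated library 1.

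Another 2 collagens were called higher with all 6 libraries but not without stimulated library 3. Col6a3, the α3 chain of the microfibril-forming collagen VI, had 1.53, 0.816 and 1.13 CPM in control and 3.27, 1.405 and 4.89 CPM in stimulated libraries. The groups overlapped at stimulated library 2, and the log2 fold change of 1.45 (edgeR adjusted p = 0.0307) was 1.00 (adjusted p = 0.136) without stimulated library 3. Col7a1, the chain of the anchoring fibrils below epithelia, had 1.97, 2.24 and 2.05 CPM in control and 4.07, 2.43 and 5.37 CPM in stimulated libraries, with a log2 fold change of 0.92 (edgeR adjusted p = 0.0373) and of 0.63 (adjusted p = 0.158) without stimulated library 3.

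The 2 collagens called lower were a membrane-bound chain and a basement membrane chain. Col23a1, a transmembrane collagen (chr11:51180566-51474745, plus strand), had 24, 26 and 34 counts in control and 2, 4 and 3 counts in stimulated libraries. All 3 stimulated libraries were near 0 (log2 fold change -2.98 ± 0.41, edgeR adjusted p = 4.05e-04). Col4a5, a collagen IV chain of specialised basement membranes (chrX:140258354-140472231, plus strand), had 11.4, 12.2 and 10.98 CPM in control and 8.38, 5.49 and 5.18 CPM in stimulated libraries (log2 fold change -0.86 ± 0.18, edgeR adjusted p = 0.005504). The main collagen IV chains did not pass the test. Col4a1 had 10.8, 11.01 and 8.97 CPM in control and 9.28, 7.92 and 19.01 CPM in stimulated libraries (edgeR adjusted p = 0.607), and Col4a2 had 5.81, 5.55 and 7.28 CPM in control and 6.53, 3.62 and 9.92 CPM in stimulated libraries (edgeR adjusted p = 0.851). These neighbours share 311 exon bases. Both were lowest in stimulated library 2 and highest in stimulated library 3.

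The classical fibrillar collagens were high in 1 stimulated library. Summed over 11 fibrillar genes, the level was 47.2, 52.5 and 59.3 CPM in control libraries 1 to 3 and 67.3, 46.2 and 189 CPM in stimulated libraries 1 to 3. Col3a1, the chain of type III collagen in soft tissue and vessel walls (chr1:45350698-45395840, plus strand), had 13.2, 14.8 and 20.97 CPM in control and 11.9, 8.98 and 71.98 CPM in stimulated libraries. Stimulated libraries 1 and 2 were below all controls and library 3 was 6.88 times their mean. The log2 fold change was 0.91 ± 0.65 (edgeR adjusted p = 0.338) with all libraries and -0.65 (adjusted p = 0.0683) without stimulated library 3. Col1a1 (chr11:94827050-94843868, plus strand) and Col1a2 encode the chains of type I collagen. Col1a1 had 8.22, 9.83 and 9.92 CPM in control and 11.6, 8.77 and 31.5 CPM in stimulated libraries (log2 fold change 0.89, edgeR adjusted p = 0.128). Its log2 fold change was 0.13 without stimulated library 3, and it was called higher without stimulated library 1 (1.10, adjusted p = 0.0197) or 2 (1.19, adjusted p = 0.0137). Col1a2 had 7.69, 7.91 and 9.96 CPM in control and 13.1, 7.195 and 31.6 CPM in stimulated libraries (edgeR adjusted p = 0.109), with 0.25 on the log2 scale without stimulated library 3 and a call without stimulated library 1 (1.17, adjusted p = 0.0272) or 2 (1.37, adjusted p = 0.00422). The FPKM ratio of Col1a1 to Col1a2 lay between 0.782 and 1.09 over all 6 libraries, so the chains of this heterotrimer kept similar proportions where the level was high. Col5a2, a chain of the collagen that starts type I fibrils, had 4.81, 6.28 and 6.26 CPM in control and 5.63, 4.56 and 21.1 CPM in stimulated libraries (log2 fold change 0.84, edgeR adjusted p = 0.244, and -0.19 without stimulated library 3), and it was called higher without stimulated library 1 (adjusted p = 0.0399) or 2 (adjusted p = 0.0458). Col5a1 showed the same order, with 3.06, 3.55 and 3.73 CPM in control and 4.92, 2.55 and 12.6 CPM in stimulated libraries (edgeR adjusted p = 0.166, and 0.00964 without stimulated library 2).

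In total, 16 of the 52 tested matrix genes (30.8%) were at least 2 times higher in stimulated library 3 than in the mean of stimulated libraries 1 and 2, against 1.15% of all genes tested. For stimulated library 1 against the other stimulated libraries the same criterion was met by 0 of the 52, against 2.66% of all genes. Of the 16, 12 were not called and 4 were (Col6a3, Ccn2 and Loxl2 higher, Lox lower). The 12 not called were Col1a1, Col1a2, Col3a1, Col5a1, Col5a2, Col5a3, Col4a1, Col8a1, Col12a1, Lama4, Fbn1 and Mgp. Mgp, encoding the calcification inhibitor matrix Gla protein, had 11, 11 and 21 counts in control and 2, 11 and 65 counts in stimulated libraries, and Fbn1, the fibrillin of elastic microfibrils, had 28, 38 and 39 and 34, 34 and 127. Of the 8 tested fibroblast markers, Dcn, Thy1, Cdh11 and Aldh1a2 met the same criterion in library 3, at ratios of 2.22, 3.07, 2.32 and 3.16. Pdgfra, the receptor that defines most fibroblasts, had 2.75, 3.47 and 3.04 CPM in control and 4.21, 2.38 and 4.11 CPM in stimulated libraries and did not. Lum, Prrx1 and Foxc1 did not meet it either, at 0.757, 1.20 and 1.56. Among pericyte and smooth muscle markers, Pdgfrb met it at 3.59, while Acta2 and Tagln did not, at 0.789 and 1.24. Rgs5, Myh11 and Des had 0 counts in library 3. The part of these markers in the fibrillar collagen values of library 3 was not tested.

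**Figure D3:**
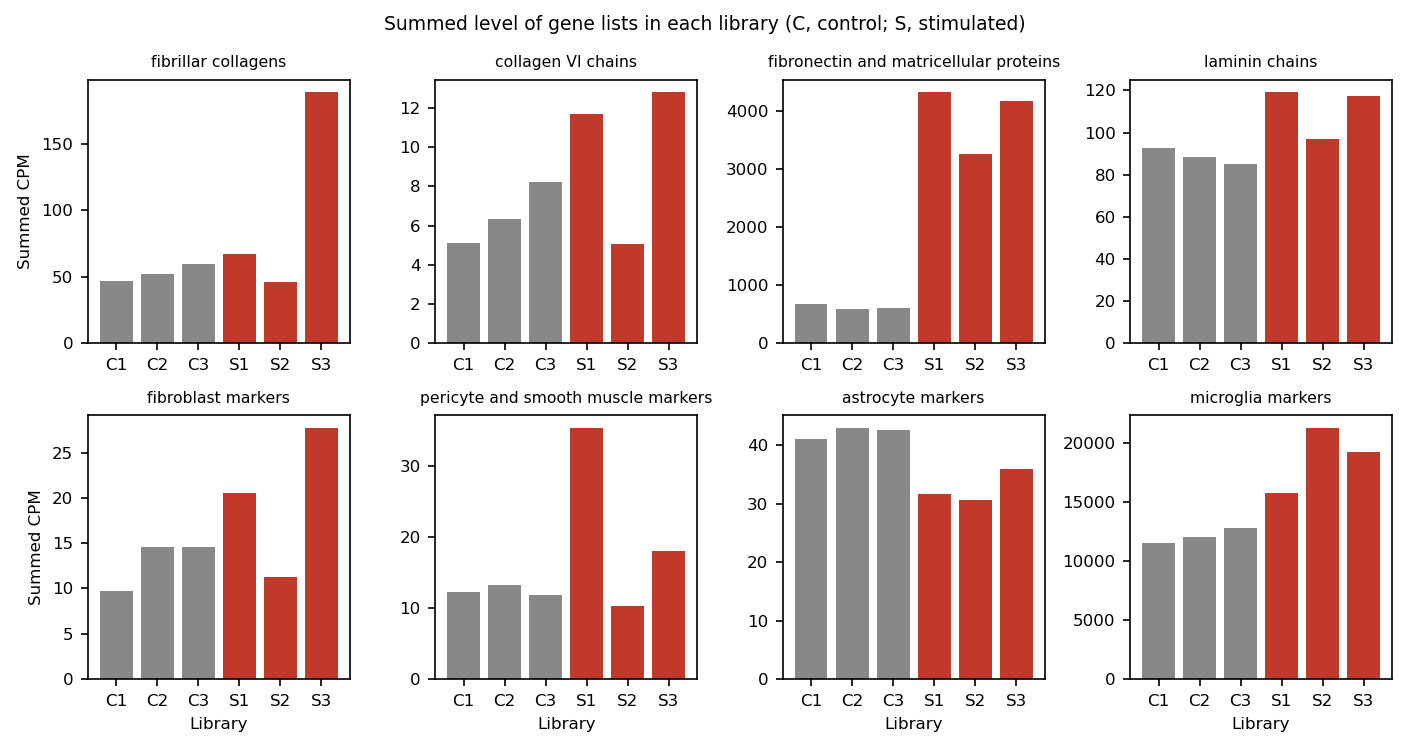
Bars give summed CPM in control libraries C1 to C3 and stimulated libraries S1 to S3, from 0, for 4 groups of matrix genes (top) and 4 lists of cell type markers (bottom). Fibrillar collagens stand out in S3 at 189 CPM and fibroblast markers are highest there at 27.7 CPM, pericyte and smooth muscle markers stand out in S1 at 35.4 CPM, and fibronectin with the matricellular proteins lies between 3253 and 4321 CPM in S1, S2 and S3.

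Elastic fibre proteins and cross-linking enzymes had 4 of 8 genes called higher and 2 lower, against 14.7% and 15.2% of all genes tested. These genes, too, were picked with earlier results of these data known, so the shares do not test the group. Emilin1, a glycoprotein of elastic fibres (chr5:31070717-31078622, plus strand), had 17.01, 18.3 and 15.4 CPM in control and 30.3, 36.8 and 40.8 CPM in stimulated libraries (log2 fold change 1.09 ± 0.13, edgeR adjusted p = 1.33e-04). Its relative Emilin2 had 24.6, 21.2 and 23.5 CPM in control and 31.6, 32.6 and 33.4 CPM in stimulated libraries, a small but even difference (log2 fold change 0.49 ± 0.09, edgeR adjusted p = 0.00303). Fbln2, which encodes the elastic fibre and basement membrane protein fibulin 2, had 2.93, 2.86 and 2.64 CPM in control and 7.86, 4.94 and 7.16 CPM in stimulated libraries (log2 fold change 1.24 ± 0.20, edgeR adjusted p = 0.00119). In each of these 3 genes every stimulated library was above every control.

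The lysyl oxidases, copper enzymes that start the cross-links of collagen and elastin, did not move together. Lox itself (chr18:52649136-52663110, minus strand) had 47.5, 49.2 and 48.4 CPM in control and 14.96, 10.6 and 38.6 CPM in stimulated libraries, all below the controls but with library 3 far above the other stimulated libraries. The log2 fold change was -1.18 ± 0.37 (edgeR adjusted p = 0.0371) and -1.92 (adjusted p = 4.47e-05) without stimulated library 3, and the call was lost with any 1 control left out or with DESeq2. Loxl3 (chr6:83011152-83029543, plus strand) had 41.8, 47.03 and 45.3 CPM in control and 26.4, 28.3 and 29.2 CPM in stimulated libraries, with an even difference (log2 fold change -0.68 ± 0.09, edgeR adjusted p = 3.21e-04). It shares 1182 exon bases with Htra2, on the other strand, which had 1.61 times its counts. Loxl2 had 5.77, 5.34 and 5.45 CPM in control and 9.94, 7.66 and 18.2 CPM in stimulated libraries, the opposite direction (log2 fold change 1.11 ± 0.28, edgeR adjusted p = 0.0136). Its value without stimulated library 3 was 0.67 (adjusted p = 0.0225), and it shares 301 exon bases with Gm27177, which had 8.74 times its counts.

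**Figure D4:**
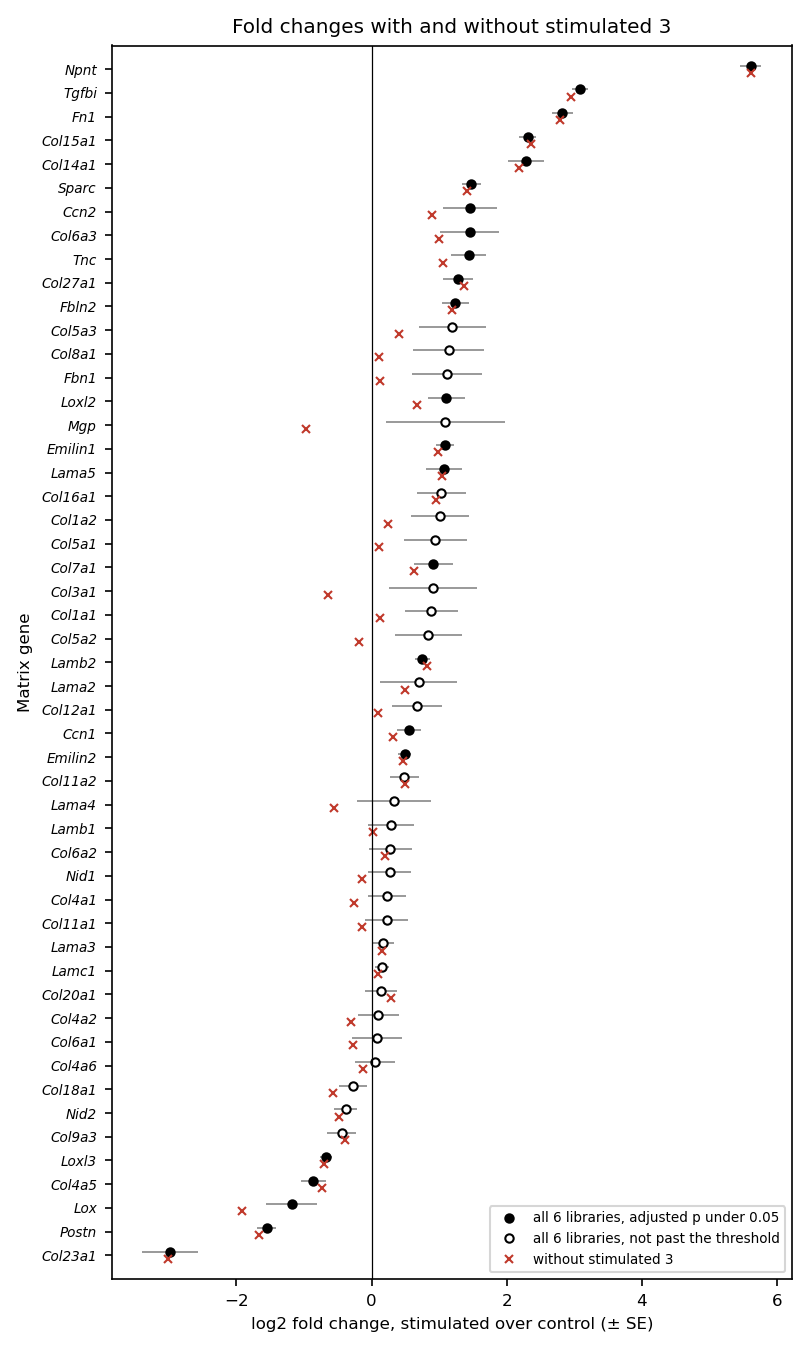
Points give the log2 fold change of stimulated over control libraries for 51 tested matrix genes, with bars of 1 SE, filled where the edgeR adjusted p was under 0.05, and crosses give the fold change without stimulated library 3. The crosses lie on the points for Npnt, Fn1, Col15a1 and Postn, move toward 0 for Col1a1, Col5a1 and Fbn1, cross 0 for Col3a1 and Mgp, and move away from 0 for Lox.

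The calls can be sorted by how they held when single libraries were left out. In each of the 6 fits with 1 library left out, 13 of the 18 genes called higher and 4 of the 5 called lower were still called in the same direction. Of those called higher, Ccn1, Ccn2, Col6a3 and Col7a1 were lost without stimulated library 3, and these 4 were also lost without at least 2 of the controls. Loxl2 was lost without control library 2 (adjusted p = 0.0645) and kept in the other 5 fits. The 13 were Npnt, Tgfbi, Fn1, Col15a1, Col14a1, Sparc, Tnc, Col27a1, Fbln2, Emilin1, Lama5, Lamb2 and Emilin2, and the 4 were Col23a1, Postn, Col4a5 and Loxl3.

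Set against each other per length, matrix transcripts were led by the same 3 genes in both groups. In control libraries Fn1 was highest at 56.5 ± 7.82 FPKM (mean ± SD, n = 3), followed by Sparc at 22.2 ± 1.56 and Tgfbi at 16.1 ± 0.762 FPKM, with no overlap between neighbours. Loxl3 and Lox came next at 11.2 ± 0.745 and 10.3 ± 0.427 FPKM and overlapped. In stimulated libraries the order was Fn1 at 365 ± 74.9 FPKM, Tgfbi at 124 ± 21.96, Sparc at 56.1 ± 8.35 and Npnt at 11.5 ± 0.391 FPKM (mean ± SD, n = 3), again without overlap. Tgfbi had passed Sparc, and Npnt had moved to rank 4 from 0.263 ± 0.0771 FPKM in the controls. The genes at ranks 5 to 9, Emilin1, Lamc1, Emilin2, Ccn1 and Loxl3, lay between 6.34 and 8.56 FPKM on average and each overlapped the next. The mean FPKM was at least 1 for 19 of the 73 genes in control and for 24 in stimulated libraries. The FPKM ratio of Col3a1 to Fn1 was 0.00478 and 0.00504 in stimulated libraries 1 and 2 and 0.0315 in library 3, against between 0.0376 and 0.0720 in the controls.

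Several genes that fold, modify and process collagen, most of them enzymes of the secretory pathway, were also higher in stimulated libraries. Of 28 such genes, 23 were tested, 10 were called higher (against 14.7% of all genes) and 1 lower (against 15.2%), with a median log2 fold change of 0.45. This list was also drawn up with earlier results of these data known. Plod1, a lysyl hydroxylase, had 185, 172 and 183 CPM in control and 401, 493 and 472 CPM in stimulated libraries (log2 fold change 1.34 ± 0.10, edgeR adjusted p = 5.82e-06). Bmp1, the protease that cuts procollagen C-propeptides, had 5.68, 6.97 and 6.22 CPM in control and 10.7, 9.49 and 18.4 CPM in stimulated libraries and was highest in library 3 (log2 fold change 1.03 ± 0.24, edgeR adjusted p = 0.00835). Its call was lost with limma on log2(FPKM + 1) (adjusted p = 0.0531, and 0.0606 with a mean FPKM of at least 1). P3h4, a partner of lysyl hydroxylation, and Ppib, a prolyl isomerase of the endoplasmic reticulum, had log2 fold changes of 0.94 and 0.81 (edgeR adjusted p = 0.0194 and 0.00524). The call of P3h4 was lost in 5 of the 6 fits with 1 library left out, all except that without stimulated library 1 (adjusted p between 0.0527 and 0.0738). P3h2, a prolyl 3-hydroxylase that acts on collagen IV, was the gene called lower, with 5.38, 4.77 and 4.47 CPM in control and 1.89, 2.299 and 2.42 CPM in stimulated libraries (log2 fold change -1.14 ± 0.19, edgeR adjusted p = 0.00132). Serpinh1, the collagen-specific chaperone HSP47, had 14.95, 19.7 and 17.7 CPM in control and 11.2, 19.8 and 30.96 CPM in stimulated libraries. Its log2 fold change was 0.24 ± 0.29 and it was not called (edgeR adjusted p = 0.597). Serpinh1 was highest in stimulated library 3, at 1.999 times the mean of stimulated libraries 1 and 2. Of the 23 tested genes, 2 had such a ratio of at least 2, Fkbp10 at 4.99 and Loxl1 at 4.15. Both stayed below 5 CPM in all libraries and were not called.

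Of 27 receptor genes for the matrix, 20 were tested, 7 were called higher and 3 lower, against 14.7% and 15.2% of all genes tested, so the share called lower was near the background. They had a median log2 fold change of 0.36. Mrc2, the collagen uptake receptor Endo180, had 1.88, 1.101 and 1.28 CPM in control and 27.1, 24.1 and 26.3 CPM in stimulated libraries (log2 fold change 4.19 ± 0.18, edgeR adjusted p = 1.81e-07). Itgb5, whose product pairs with integrin αv to bind vitronectin and latent TGF-β, had 272, 276 and 285 CPM in control and 2019.5, 2606 and 2524 CPM in stimulated libraries (log2 fold change 3.10 ± 0.12, edgeR adjusted p = 1.53e-07). Both were far above every control in all 3 stimulated libraries, with no library apart from the others. Adgrg1, the adhesion receptor GPR56 that binds collagen III, had a log2 fold change of 1.92 ± 0.22 and Itgav, the αv chain, of 1.26 ± 0.14 (edgeR adjusted p = 1.11e-04 and 9.12e-05). On the other side, Itga9, the integrin chain that binds tenascin C, had 41.7, 37.2 and 32.1 CPM in control and 12.03, 7.07 and 8.900 CPM in stimulated libraries (log2 fold change -1.99 ± 0.18, edgeR adjusted p = 2.51e-05). Sdc4, a heparan sulfate co-receptor for fibronectin, had 131, 129.6 and 121 CPM in control and 47.4, 48.3 and 45.5 CPM in stimulated libraries (log2 fold change -1.44 ± 0.08, edgeR adjusted p = 1.05e-06). Cd44, the hyaluronan receptor, had a log2 fold change of -0.54 (edgeR adjusted p = 8.70e-04). Itga8, the usual partner chain for nephronectin, was among the 7 receptor genes without enough counts to be tested.

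**Figure D5:**
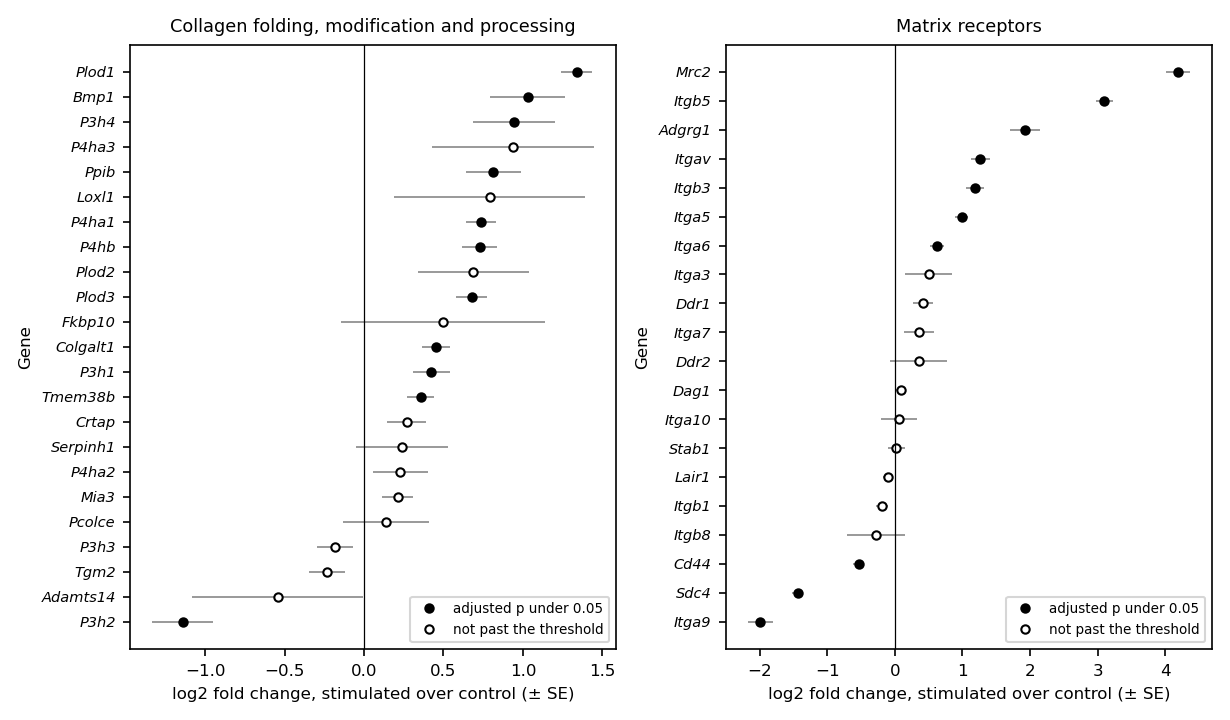
Points give log2 fold changes of stimulated over control libraries with bars of 1 SE for 23 tested genes of collagen folding, modification and processing (left) and 20 tested matrix receptors (right), filled where the edgeR adjusted p was under 0.05. Plod1 leads the processing genes at 1.34 and P3h2 ends them at -1.14, while Mrc2 at 4.19 and Itgb5 at 3.10 lead the receptors and Itga9 ends them at -1.99.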

How the data were processed

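RNA-seq of 6 libraries was analysed, 3 control and 3 stimulated, grouped by their labels. According to the submitters' processing notes and the study's methods, HISAT2 was used by the authors for mapping to mm39 (GRCm39) and featureCounts for counting. The authors deposited raw counts per gene symbol, without normalization, and a second table of FPKM values. Versions, annotation, strand setting and the handling of overlapping genes are not given in the sources used here, so the 31 of 73 matrix genes that share exon bases with another listed gene (23 of them tested) may carry its reads. Each deposited FPKM equalled the count times 1 factor for the gene and 1 for the library. No column of another sample was present (0 columns).

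For the count test, edgeR 4.0.16 (R 4.3.3) was used with filterByExpr, TMM factors and its quasi-likelihood F-test. P-values of all 14618 genes tested were adjusted by Benjamini-Hochberg, and the threshold was 0.05. The common dispersion was 0.0164, a coefficient of variation of 0.128. Genes with few counts carry larger errors. Alternatives used DESeq2 1.42.0, limma 3.58.1 on log2(FPKM + 1) and log2(FPKM + 0.1), which understates changes of low genes, other scalings and filters, the replicate number as a block, and each library left out in turn. Steps were tested on simulated data. No pair of libraries agreed within sampling noise, so none was counted as a duplicate. Over all genes it was stimulated library 1 that lay furthest from the other stimulated libraries. The chi-square per gene was 79.9 against library 2 and 46.7 against library 3, and 14.6 between libraries 2 and 3.

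Matrix genes were taken by symbol. Those with an adjusted p under 0.05 or a mean of at least 5 CPM in either group could be named with their values, as could up to 4 called genes in each direction of the processing and receptor lists and the defining markers of other cell types. Others are given by counts. Serpinh1, Fkbp10, Loxl1, Itga8, Thy1, Cdh11, Aldh1a2, Prrx1, Foxc1, Tagln, Aldh1l1, Des and Myh11 were added after their values were seen. The members and all lists were chosen with earlier results of these data known. Coordinates and the 250 bases upstream of canonical transcripts are from GENCODE M39 on GRCm39. Of the tested matrix genes, 1 enters the counts and sums but is not reported here by name or drawn.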

Additional observations from a re-analysis of the deposited data

How the results depend on the processing

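Scaling by library size, without TMM factors, changed the balance: the median of all genes shifted by -0.13 on the log2 scale and 32.3% of all called genes were higher, against 49.1%, and 15 matrix genes were called higher and 5 lower. With limma on log2(FPKM + 1) restricted to a mean FPKM of 1 or more, 9 matrix genes were called higher and 7 collagen processing genes were called, over 24 and 17 genes tested. Leaving out 1 library in turn gave 14 to 27 matrix genes called higher and 4 to 6 lower, a median log2 fold change of 0.18 to 0.95, 8 to 13 processing genes, 10 to 11 receptor genes and 3249 to 5234 genes in all. Over the same fits Col3a1 ranged from -0.65 to 1.34, Col4a1 from -0.26 to 0.45, Col4a2 from -0.30 to 0.39, Col5a2 from -0.19 to 1.19 and Nid1 from -0.14 to 0.56, each lowest without stimulated library 3 and highest without stimulated library 2. The lowest median was without stimulated library 3 and the highest count of genes called higher, 27, without stimulated library 2. Leaving out stimulated libraries 1 and 3 together was chosen after seeing the data. It leaves 1 stimulated library, assumed to vary like the controls, and gave 13 matrix genes called higher, 8 lower and a median of 0.013.

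The sign of further values, all of genes not called with all libraries, turned as well. Without stimulated libraries 1 and 3, Col1a1 was at -0.088, Col1a2 at -0.25, Col3a1 at -0.87, Col4a1 at -0.37, Col4a2 at -0.78, Col5a1 at -0.43, Col5a2 at -0.35, Lama3 at -0.18, Lamc1 at -0.021 and Nid1 at -0.60. Col4a2 was at -0.018 with library size alone, -0.035 with limma on log2(FPKM + 1) and -0.11 on log2(FPKM + 0.1), where Col4a1 was at -0.0039. The cause was not tested. Over the matrix genes called or with a mean of at least 5 CPM, the called processing and receptor genes and all alternatives, 788 values kept direction and side of the threshold, 62 lost the call, 12 gained it and 19 turned. The 12 gained calls were higher Col1a1, Col1a2, Col5a1 and Col5a2, without stimulated library 1 or 2, without a filter on low counts or with the block, and lower Col18a1. Among lower-expressed genes outside this tally, Mgp turned to -0.98, Lama4 to -0.55, Col6a1 to -0.27, Col11a1 to -0.15 and Col4a6 to -0.13 without stimulated library 3. Among the matrix genes, Ccn1, Col6a3 and Col7a1 lost their call without TMM factors, and the test of log2(FPKM + 1) values by limma also lost the calls of Ccn2, Lama5 and Loxl2. With the replicate number as a block, 4924 genes were called, with 20 matrix genes higher, 5 lower, 11 processing and 11 receptor genes and a median of 0.60. The same-numbered libraries deviated with correlations of 0.27, -0.01 and 0.18. Control libraries 2 and 3 did not correlate best with their own numbers, so the numbers were not taken as a pairing.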

Other observations

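Among the 18 matrix genes with counts but too few for testing, no gene exceeded 31 counts in any library. That highest value belonged to Col6a4, a collagen VI chain, which had 0, 0 and 0 counts in control and 31, 2 and 4 counts in stimulated libraries 1 to 3. Stimulated library 1 was also the library with 145 counts of Myh11, 63 of Des and 37 of Rgs5. Lama1, the laminin chain of embryonic basement membranes, had 1, 1 and 1 counts in control and 0, 6 and 11 counts in stimulated libraries. Col2a1, the cartilage collagen, had 4, 0 and 1 and 10, 2 and 2 counts. These values were noticed after the data were seen, and no test was made of them.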
